A study of Rattus norvegicus with 300 samples.

Results

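Gad1, Gad2, Slc32a1 and Slc6a11 encode proteins that make and move the inhibitory transmitter gamma-aminobutyric acid (GABA). The 4 genes were chosen by name, and all 4 were among the 17337 gene symbols of the count table. RNA had been counted in 300 libraries of brain tissue from male Long Evans rats aged 60 days, in 10 brain regions under 6 treatments with 5 libraries in each of the 60 groups. For 3 weeks the rats drank water with FT (13 mg/kg/day), with 15 mg/kg/day of Bupropion, with 7.5 mg/kg/day of Desipramine, with Probiotics, with Maltodextrin (10 g/L), or with nothing added (Control). FT is not spelled out in the labels; fluoxetine is the drug of the treatment protocol that no other group name takes. All 3 drugs are antidepressants: fluoxetine blocks the uptake of serotonin, desipramine that of noradrenaline, and bupropion that of dopamine and noradrenaline. Maltodextrin is the labelled control for the probiotic, so Probiotics was set against Maltodextrin, and the drugs and Maltodextrin against Control. Regions carry the labels' abbreviations: ILC, PLC and CGC, dorDG and venDG, BLA, NACShell, mPOA, Raphe and LConly. Each library came from punches pooled by region, and how many rats a pool held is not stated in the labels, so every p-value below measures the spread between pooled libraries. In such tissue, fewer cells of a type and less RNA per cell cannot be told apart.

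GABA is made from glutamate by glutamate decarboxylase, an enzyme that needs pyridoxal phosphate, the active form of vitamin B6. The enzyme comes in a pair of forms from separate genes. Gad1 encodes the form found throughout the neuron, which is largely bound to its cofactor, and Gad2 the form concentrated at nerve endings, which is more often without it. Slc32a1 encodes the vesicular transporter that loads GABA, and in glycinergic neurons glycine, into synaptic vesicles. Slc6a11 encodes a plasma membrane GABA transporter found mainly on astrocytes, which clears GABA from the extracellular space. GABAergic neurons are interneurons in cortex and hippocampus and the main projection neurons in the striatum, to which the nucleus accumbens belongs.

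The upstream sequences of Gad1 and Gad2 are shown because these genes serve the same reaction and their counts moved apart between treatments. All 4 genes had an entry among the RefSeq promoter windows of build GRCr8. The sequences are printed 5′ to 3′, and capitals mark TATAAA, the core of a TATA box. Gad1 is the 58 bases at chr3:75777202-75777259 on the plus strand, directly before the annotated start of the gene, and Gad2 the 250 bases at chr17:89671468-89671717, also on the plus strand and before the gene's start. The RefSeq window of Gad1 is placed on a transcript start inside the annotated gene, so only its bases before the gene's start are printed, and the motif distance given here is to that start and not to the transcript start of the window.
Gad1: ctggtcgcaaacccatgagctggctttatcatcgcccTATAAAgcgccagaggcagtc
Gad2: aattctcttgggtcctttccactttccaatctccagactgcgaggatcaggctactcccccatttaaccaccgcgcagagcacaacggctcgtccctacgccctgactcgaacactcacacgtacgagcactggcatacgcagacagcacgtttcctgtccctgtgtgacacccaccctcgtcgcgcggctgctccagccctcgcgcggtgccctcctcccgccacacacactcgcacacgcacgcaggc
The motifs TATAAA and GGGCGG (a GC box) were searched on both strands. TATAAA occurred 1 time before Gad1, with its first T 21 bases from the gene start, and 0 times in the longer window before Gad2. It was in 3.58% of the 33469 RefSeq promoter windows trimmed to the last 58 bases before the start, and in 12.9% of those with 250 bases. GGGCGG had 0 matches in either window, where 14.5% of the shorter and 30.5% of the longer windows held one. GC content was 55.2% before Gad1 and 62.0% before Gad2. A match is a description of these letters and not a binding site.

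Libraries held 198260 to 18310687 counts (median 9232563), and 4 Desipramine libraries held fewer than 1000000 counts. Raw counts per library were 56 to 5912 for Gad1, 27 to 6947 for Gad2, 7 to 1204 for Slc32a1 and 5 to 1344 for Slc6a11. Several groups went against their region label or stood apart. The FT libraries labelled ILC averaged 255 ± 39.4 CPM, counts per 1000000 of the library's counts (SD, n = 5), of Dbh, the noradrenaline-making enzyme that marks the locus coeruleus, and those labelled LConly 0.651 ± 0.302, so the labels of these 2 FT groups carry each other's markers. They are kept as labelled and described apart. Slc17a7, the vesicular glutamate transporter of cortical neurons, stood at 274 ± 10.6 CPM in the Maltodextrin libraries of ILC but at 23.4 ± 2.48 in the Control libraries of ILC. The Probiotics libraries of dorDG held 28.6 ± 3.3 CPM of Slc17a7 and 29.6 ± 7.37 of Prox1, a dentate granule cell marker, against 444 ± 12.8 and 88.9 ± 3.49 in Maltodextrin. The Control libraries of BLA and venDG held 536 ± 48.5 and 567 ± 13.8 CPM of Cd74, an antigen presentation gene. Ttr, the choroid plexus transthyretin, was at 16976 ± 602 CPM in Probiotics LConly and 6222 ± 404 in Maltodextrin LConly, against 39.6 ± 3.61 in Control. BLA libraries of all treatments held Drd1, a receptor of striatal projection neurons, at group means of 108 to 228 CPM, beside 176 to 336 in NACShell. CGC, PLC and Raphe had none of these departures in the markers named, and counts over these regions alone are given beside those over all 10. They were not checked for all cell types. Markers of microglia and antigen presentation were called lower than Control in most tests over the 10 regions for FT, Desipramine and Maltodextrin. The counts are given at the end, and this difference of Control is thus not confined to BLA and venDG. Raphe still differed in tissue between groups. Its Control libraries held less of the glycinergic marker Slc6a5 than Maltodextrin, and higher summed astrocyte markers than Maltodextrin or any drug, with values below. The part of these differences in the Raphe changes was not tested.

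Gad1 and Gad2 were abundant transcripts, with mean levels over all libraries above those of 96.3% and 95.8% of the symbols in the table. Slc32a1 lay above 79.7% and Slc6a11 above 69.5% of symbols. Transcript lengths were not used here, so levels are compared between regions and treatments but not between genes. Levels are given as CPM of the library total (mean ± SD, n = 5).

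In Control rats, Gad1 was highest at 495 ± 15.1 in NACShell, 492 ± 19.7 in BLA and 481 ± 21.5 in mPOA. Striatal projection neuron markers summed to 5271 to 5817 CPM in Control BLA libraries, beside 4314 to 4436 in Control NACShell; their part in the BLA level was not tested. Gad1 was then 219 ± 4.8 in venDG, 208 ± 10.6 in dorDG, 197 ± 7.6 in CGC, 187 ± 9.62 in PLC and 171 ± 8.54 in Raphe, and lowest at 114 ± 9.04 in ILC and 95.8 ± 9.97 in LConly. Neighbours in this order were compared with edgeR's quasi-likelihood test on the 50 Control libraries, and 7 of the 9 steps passed. The steps that did not pass were dorDG to CGC (log2 -0.07 ± 0.05, adjusted p = 0.226) and CGC to PLC (log2 0.05 ± 0.05, adjusted p = 0.434). The top 3 regions are close in CPM, and the fit, which scales libraries by TMM, put mPOA above BLA (BLA over mPOA, log2 -0.17 ± 0.05, adjusted p = 0.000722). It also put Raphe above PLC (PLC over Raphe, log2 -0.12 ± 0.05, adjusted p = 0.0211). These steps are among the 7 that passed, but they run against the order in CPM. With library totals in place of TMM, 4 of the 9 steps passed.

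Gad2 followed another order. In Control it was highest in mPOA at 563 ± 27.5 CPM, then 422 ± 12.9 in NACShell, 365 ± 20.6 in BLA and 279 ± 19 in Raphe. From dorDG down the values were close, at 188 ± 6.46 in dorDG, 157 ± 11.3 in venDG, 149 ± 6.51 in CGC, 137 ± 9.26 in PLC, 114 ± 21.3 in ILC and 111 ± 5.84 in LConly. Of its 9 steps 4 passed, or 6 with library totals, and no step between dorDG and ILC did under TMM: dorDG to venDG gave log2 0.04 ± 0.08, adjusted p = 0.678, and PLC to ILC log2 0.01 ± 0.07, adjusted p = 0.953. BLA and Raphe did not differ beyond their spread either (log2 -0.13 ± 0.07, adjusted p = 0.0932). Raphe, near the low end for Gad1, stood above dorDG for Gad2 (log2 0.98 ± 0.07, adjusted p = 2.18e-16).

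Slc32a1 was also highest in mPOA, at 90.8 ± 4.06 CPM in Control, followed by 67.5 ± 3.12 in BLA, 67.3 ± 6.37 in NACShell and 43.7 ± 4.48 in Raphe. CGC, venDG, LConly, PLC and dorDG lay between 27.5 and 21.4 CPM. ILC was lowest at 9.23 ± 1.09, and the step from dorDG to ILC was log2 0.80 ± 0.09, adjusted p = 2.37e-12. Of its steps 7 of 9 passed, or 4 with library totals. CGC to venDG (log2 -0.05 ± 0.08, adjusted p = 0.571) and venDG to LConly (log2 0.04 ± 0.08, adjusted p = 0.673) did not pass. BLA to NACShell passed against the order in CPM, with NACShell higher in the fit (BLA over NACShell, log2 -0.24 ± 0.07, adjusted p = 0.0021). The astrocyte transporter Slc6a11 had the widest range of the 4 genes in Control, with 86.8 ± 13.9 in mPOA, 71.6 ± 5.0 in Raphe and 46.5 ± 5.5 in LConly. Levels then dropped to 19 ± 1.98 in venDG (LConly to venDG, log2 1.3 ± 0.08, adjusted p = 7.66e-27). NACShell, BLA, PLC, dorDG and CGC lay between 16.4 and 12.6 CPM, and ILC was lowest at 2.58 ± 0.707. mPOA and Raphe did not differ beyond their spread (log2 -0.04 ± 0.06, adjusted p = 0.591), and 6 of the 9 steps passed, or 4 with library totals. Over the 30 pairs of regions behind these steps, 64.6% of all tests across genes passed in Control, so a step that passed was common among genes.

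In Maltodextrin rats the regions split in a like way, with ILC less apart. NACShell led for Gad1 at 611 ± 20.8 CPM and for Gad2 at 681 ± 32.9, and mPOA for Slc32a1 at 97 ± 3.32 and for Slc6a11 at 66.4 ± 8.89. The lowest regions were PLC for Gad1 (157 ± 6.98 CPM), LConly for Gad2 (96 ± 8.64) and ILC for Slc32a1 and Slc6a11 (18 ± 1.09 and 6.18 ± 0.56). Of the 9 steps, 5 passed for Gad1, 7 for Gad2, 6 for Slc32a1 and 5 for Slc6a11 (3 with library totals), where 62.9% of all tests over the 29 pairs did. Some of these steps passed against the order in CPM. They were CGC to venDG for Gad1 (log2 -0.12 ± 0.04, adjusted p = 0.0115) and for Gad2 (log2 -0.29 ± 0.06, adjusted p = 9.14e-06). NACShell to Raphe for Slc32a1 was another (log2 -0.16 ± 0.06, adjusted p = 0.00753). For Gad1, leaving out Maltodextrin replicate 2, 3 or 4 left 3 of 9. The mean in the highest region over that in the lowest was 3.88 for Gad1, 7.09 for Gad2, 5.4 for Slc32a1 and 10.8 for Slc6a11 in Maltodextrin. In Control, where ILC is one of the groups that stand apart, it was 5.16, 5.06, 9.83 and 33.6 in the same order of genes.

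**Figure D1:**
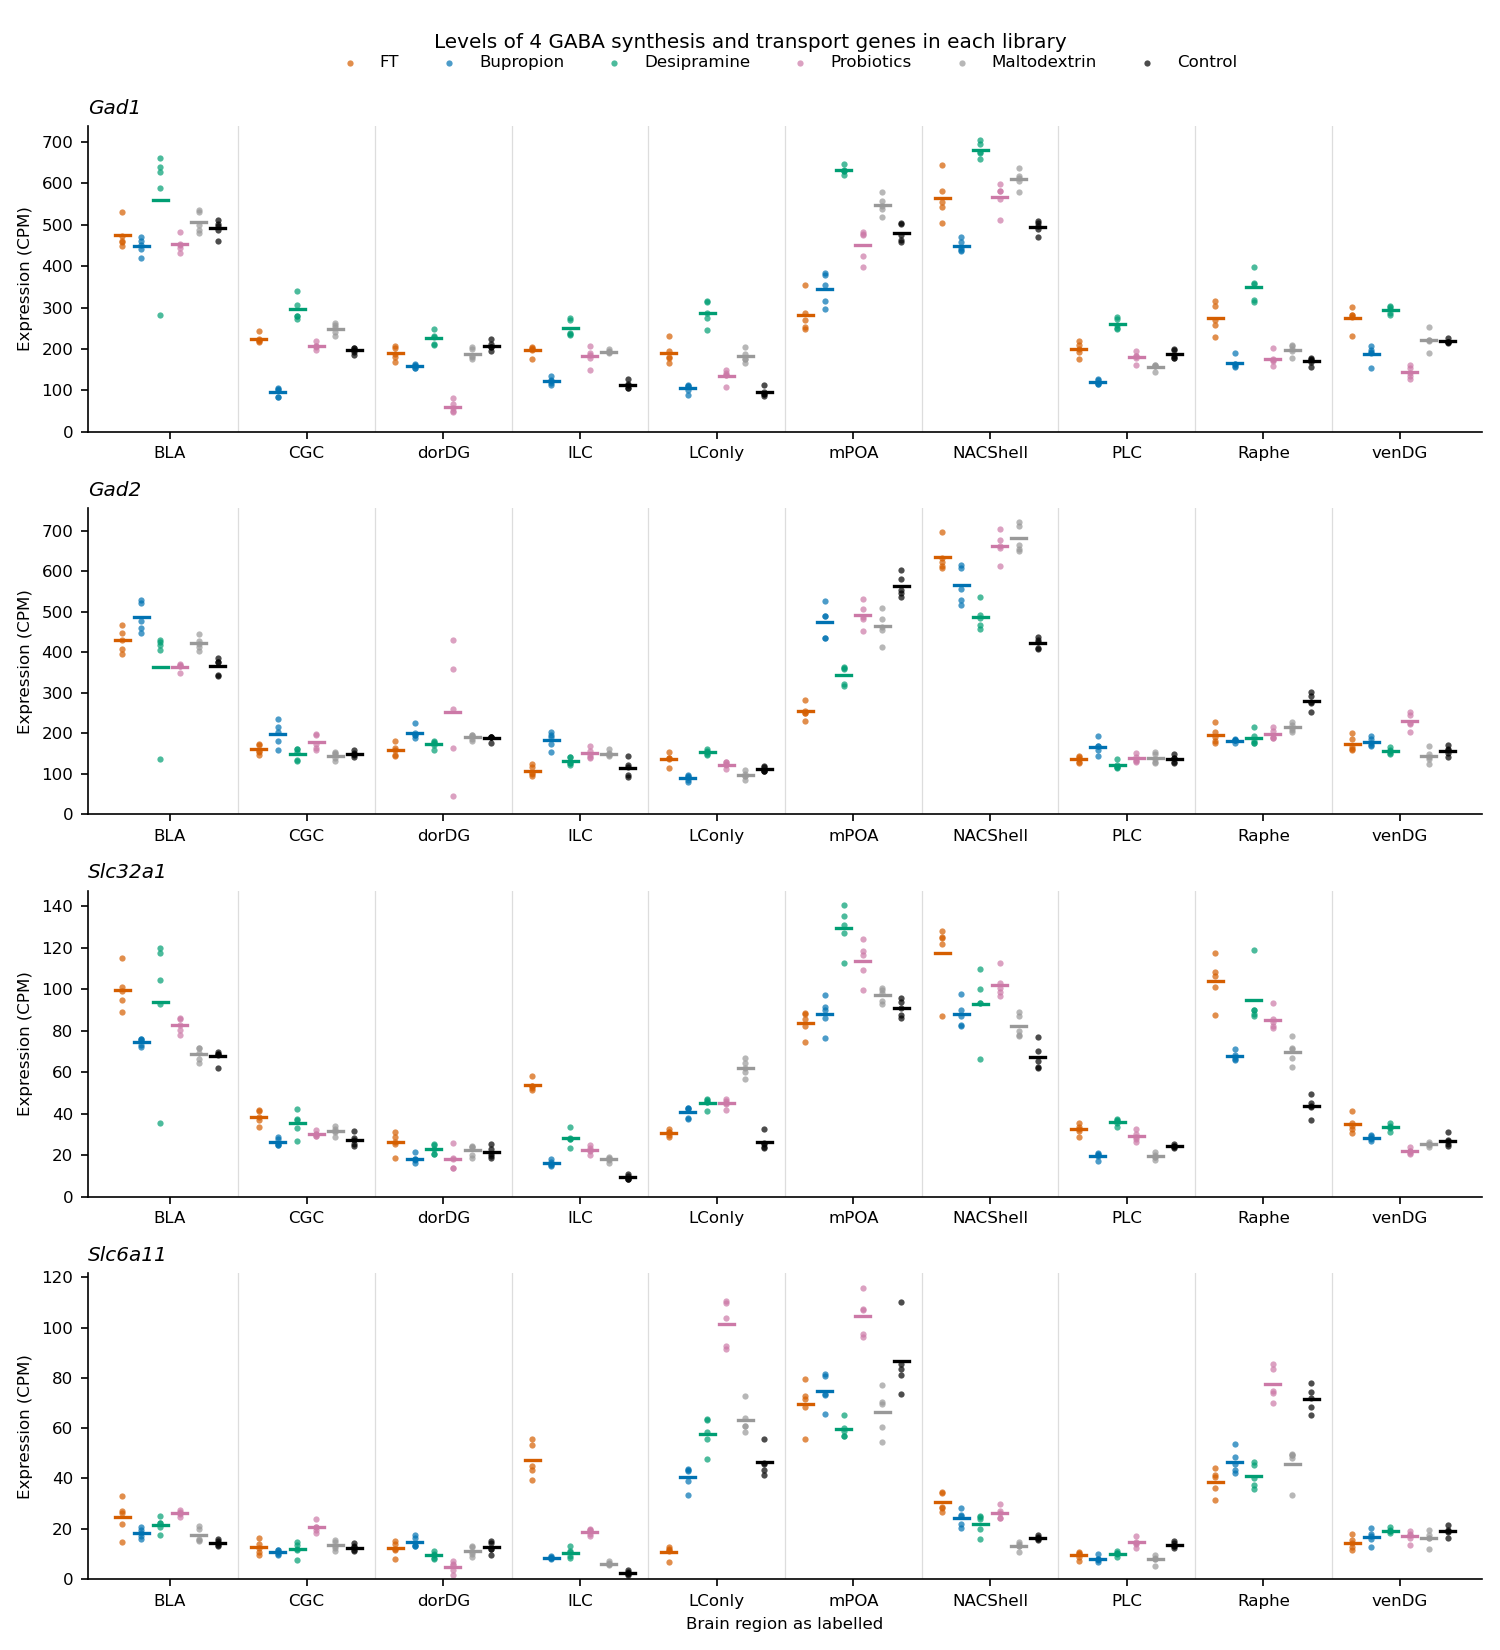
Level of Gad1, Gad2, Slc32a1 and Slc6a11 (CPM of the library total, linear axes from 0) in each library of each brain region. Points are single libraries and bars the means of 5, colours mark the treatments. Gad1 in CGC stood at 95.8 ± 10.2 CPM under Bupropion and 197 ± 7.6 in Control, and Slc6a11 in ILC at 47.4 ± 6.88 under FT and 2.58 ± 0.707 in Control.

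Treatments were compared within each region, in one edgeR fit of the region's 30 libraries, and a gene was called at a Benjamini-Hochberg adjusted p under 0.05 over the genes of that region and comparison. Calls were frequent among all genes, so each count of calls below is set beside the share over all genes tested in the same 10 regions. For FT, 26.9% of those tests were called higher and 26.2% lower; for Bupropion 22.8% and 23.3%; for Desipramine 26.3% and 27.8%. Probiotics against Maltodextrin called 21.6% higher and 21.0% lower, and Maltodextrin against Control 18.3% and 19.3%. The values by library are given here as normalised CPM, CPM of the TMM-scaled library total in that fit. Scaling by library totals instead shifted the median of all genes by -0.13 to 0.46 on the log2 scale, by more than 0.1 in 30 of the 50 region comparisons. It changed the call in 40 of the 200 tests of the 4 genes, and 0 were called in opposite directions by the 2 scalings, so the counts under library totals are given too. The 3 drugs and Maltodextrin share the Control libraries, so their comparisons are not independent, and the change against Maltodextrin is given beside the drug values of the 4 genes, save those of the FT groups labelled ILC and LConly.

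Of the 40 tests of the 4 genes over 10 regions, FT gave 16 calls higher and 10 lower (19 and 8 with library totals), Bupropion 13 and 13 (13 and 12) and Desipramine 20 and 9 (24 and 6). Probiotics gave 13 and 13 (18 and 9), and Maltodextrin 12 and 10 (15 and 9). Within a treatment the genes differed in their direction, and each is described in turn.

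**Figure D2:**
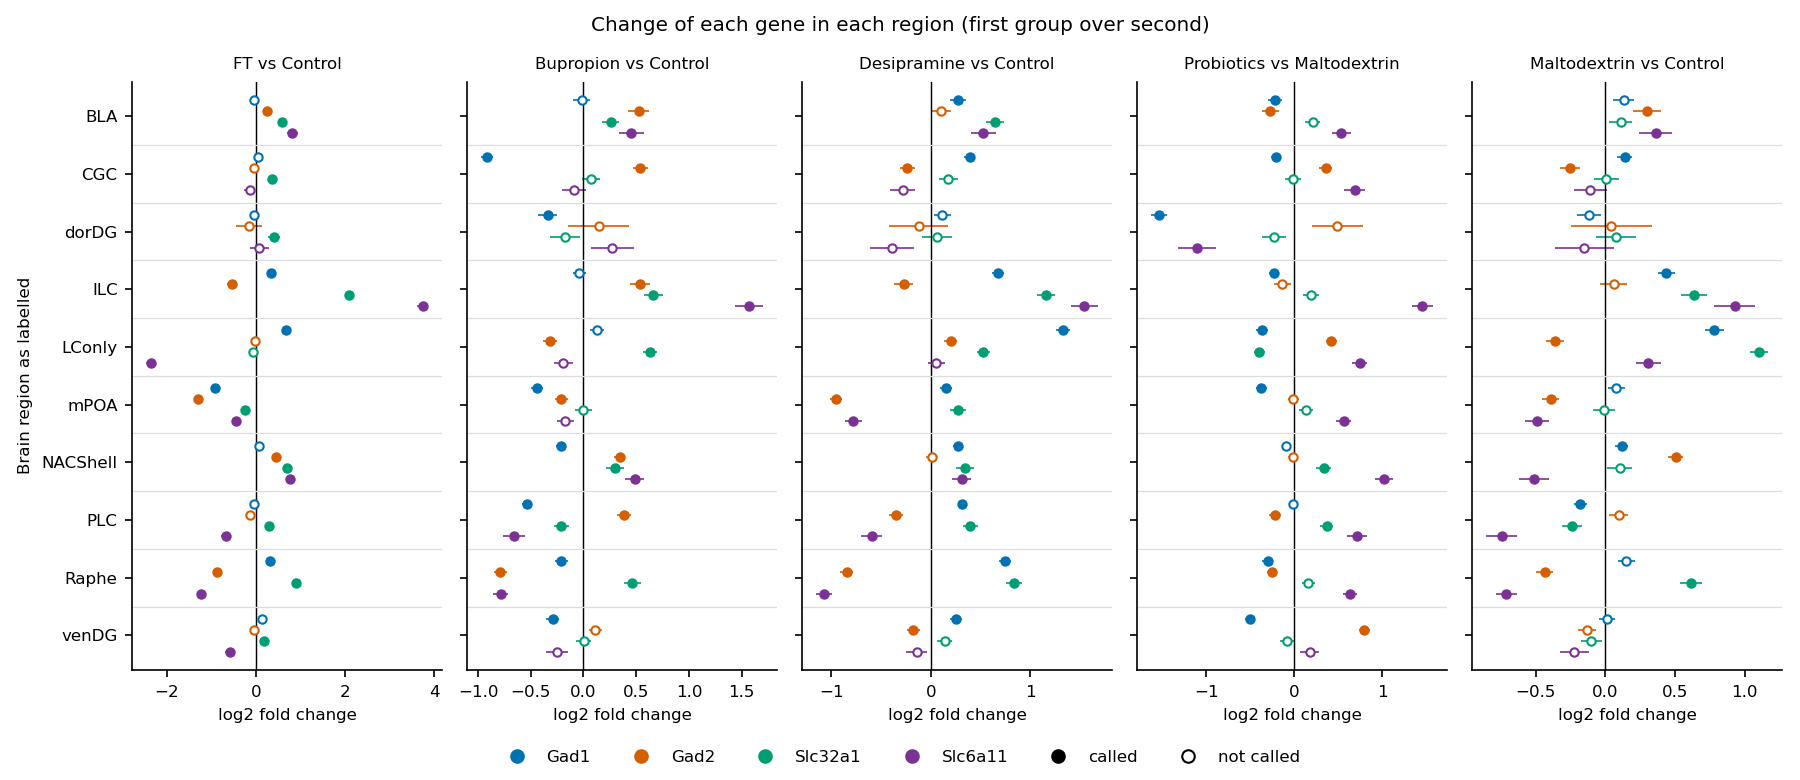
Log2 fold change (points) with its standard error (bars) of Gad1, Gad2, Slc32a1 and Slc6a11 in each region, one panel per comparison, the first group over the second. Filled points were called at an adjusted p under 0.05, open ones were not, and the horizontal axes differ between panels. Under Desipramine the Gad1 points lie right of 0, from 0.12 in dorDG to 1.33 in LConly, and under Probiotics the Slc6a11 points do in all regions but dorDG (-1.11).

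Gad1, for the general form of the enzyme, was higher under Desipramine and lower under Bupropion and Probiotics in most regions, though with library totals Probiotics had it lower in 5 of 10 and higher in 1. With Desipramine it was called higher in 9 and lower in 0 of 10 regions (median log2 change 0.29, range 0.12 to 1.33), where 26.3% of all tests were called higher. The calls were 9 higher and 0 lower with library totals, 8 higher and 0 lower against Maltodextrin, and 3 higher and 0 lower over CGC, PLC and Raphe alone. Gad1 in LConly stood at 281, 261, 284, 252 and 236 normalised CPM in the Desipramine libraries, against 110.2, 103, 96.2, 104 and 111 in the Control libraries. Desipramine was the higher group, without overlap. This was a log2 change of 1.33 ± 0.07 (SE; adjusted p = 1.52e-17), and against Maltodextrin it was 0.54 ± 0.07 (adjusted p = 4.0e-08). The 5 glycinergic markers, which neurons near the locus coeruleus express, summed to 88.8 to 114 CPM in Desipramine LConly libraries, 264 to 315 in Maltodextrin and 106 to 136 in Control. Over CGC, PLC and Raphe, Gad1 under Desipramine changed by log2 0.75 ± 0.06 (0.60 against Maltodextrin) in Raphe, log2 0.39 ± 0.06 (0.25 against Maltodextrin) in CGC and log2 0.31 ± 0.04 (0.49 against Maltodextrin) in PLC (± SE), all called. In BLA, Desipramine replicate 3, the shallowest library of the series at 198260 counts, held 282 CPM of Gad1 where the other 4 held 588 to 662.

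With Bupropion Gad1 was called higher in 0 and lower in 7 of 10 regions (median log2 change -0.25, range -0.91 to 0.13). Calls came to 0 higher and 6 lower with library totals, 0 higher and 8 lower against Maltodextrin, and 0 higher and 3 lower over CGC, PLC and Raphe alone. In CGC, the Bupropion libraries had 100.1, 117, 102, 118 and 120.2 normalised CPM of Gad1, against 214, 214, 199, 214 and 209 in Control. All Bupropion values were below all Control values. The fitted log2 change was -0.91 ± 0.06 (SE; adjusted p = 1.71e-16), and against Maltodextrin it was -1.05 ± 0.06 (adjusted p = 7.22e-19). The 18 GABAergic neuron markers in the table summed to 1330.2 to 1389.9 CPM in Bupropion CGC libraries, against 1192 to 1236 in Control; without Sst and Pvalb, the other 16 summed to 468 to 522, against 525 to 558, and their part in the change was not tested. PLC (log2 -0.54 ± 0.05, and -0.36 against Maltodextrin) and mPOA (log2 -0.44 ± 0.06, and -0.52 against Maltodextrin) followed in size. Gad1 under FT was called higher in 3 and lower in 1 of 10 regions (median log2 change 0.06, range -0.92 to 0.68); most of its changes were small. Other counts were 6 higher and 1 lower with library totals, 2 higher and 1 lower against Maltodextrin, and 1 higher and 0 lower over CGC, PLC and Raphe alone. Without the FT groups labelled ILC and LConly it was 1 higher and 1 lower of 8 regions, with log2 changes of -0.92 to 0.33. The FT libraries of Raphe held Gad1 at 259, 242, 269, 227 and 215 normalised CPM, and the Control libraries at 198, 197, 200.4, 193 and 177. Every FT library lay above every Control library. On the log2 scale the change was 0.33 ± 0.06 (SE; adjusted p = 2.06e-05), and against Maltodextrin it was 0.17 ± 0.06 (adjusted p = 0.0172). Gad1 in mPOA stood at 319, 249.6, 278, 279.8 and 248 normalised CPM in the FT libraries, against 544, 515, 507, 533 and 495 in the Control libraries. FT was the lower group, without overlap. As a log2 change this came to -0.92 ± 0.06 (SE; adjusted p = 4.32e-15), and against Maltodextrin it was -1.0 ± 0.06 (adjusted p = 3.62e-16). The oligodendrocyte markers of the same mPOA libraries summed to 21688 to 33060.5 CPM, against 50792 to 62573 in Control, and the GABAergic markers to 892 to 1029, against 789 to 842. The part of cell makeup in these differences was not tested.

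With Probiotics, Gad1 was called higher in 0 and lower in 8 of 10 regions (median log2 change -0.26, range -1.54 to -0.01) against Maltodextrin. This became 1 higher and 5 lower with library totals and 0 higher and 2 lower over CGC, PLC and Raphe alone. In dorDG, the Probiotics libraries had 86.3, 60.7, 70.2, 50.3 and 52.3 normalised CPM of Gad1, against 193, 175, 195, 183 and 185 in Maltodextrin. All Probiotics values were below all Maltodextrin values. The log2 change was -1.54 ± 0.09 (SE; adjusted p = 8.3e-17). In these dorDG libraries excitatory neuron markers summed to 439 to 639 CPM, against 1374 to 1452 in Maltodextrin, and GABAergic markers to 743 to 1039, against 853 to 929.5. The next largest change was in venDG (log2 -0.50 ± 0.06). Maltodextrin itself gave Gad1 called higher in 4 and lower in 1 of 10 regions (median log2 change 0.12, range -0.18 to 0.78). The calls were 6 higher and 1 lower with library totals and 1 higher and 1 lower over CGC, PLC and Raphe alone. The Maltodextrin libraries of LConly held Gad1 at 189, 184, 182, 175 and 171 normalised CPM, and the Control libraries at 110.2, 103, 96.2, 104 and 111. Every Maltodextrin library lay above every Control library. Fitted on the log2 scale, the change was 0.78 ± 0.07 (SE; adjusted p = 3.29e-11). Gad1 in PLC stood at 169.9, 173, 169, 171 and 169 normalised CPM in the Maltodextrin libraries, against 196, 200.4, 198, 182 and 188 in the Control libraries. Maltodextrin was the lower group, without overlap. Maltodextrin over Control gave a log2 change of -0.18 ± 0.05 (SE; adjusted p = 0.00118). The LConly rise stood beside the higher glycinergic markers and Ttr of the Maltodextrin LConly libraries given above, whose part in it was not tested.

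Gad2, for the nerve-ending form, did not follow Gad1. Under Desipramine it was called higher in 1 and lower in 6 of 10 regions (median log2 change -0.20, range -0.95 to 0.20), where Gad1 had 9 and 0. Calls came to 2 higher and 3 lower with library totals, 1 higher and 5 lower against Maltodextrin, and 0 higher and 3 lower over CGC, PLC and Raphe alone. In mPOA, the Desipramine libraries had 289.9, 329, 325, 329.6 and 299 normalised CPM of Gad2, against 613, 650.4, 557, 639 and 583 in Control. All Desipramine values were below all Control values. Its log2 change was -0.95 ± 0.06 (SE; adjusted p = 2.1e-15), and against Maltodextrin it was -0.56 ± 0.06 (adjusted p = 1.8e-09). The Desipramine libraries of LConly held Gad2 at 130.4, 136, 146, 141 and 148 normalised CPM, and the Control libraries at 122, 122, 118, 133 and 116. Most Desipramine values were higher, but the groups overlapped. This was a log2 change of 0.20 ± 0.06 (SE; adjusted p = 0.00708), and against Maltodextrin it was 0.56 ± 0.06 (adjusted p = 4.65e-09). Raphe (log2 -0.85 ± 0.06, adjusted p = 1.66e-14) was close to mPOA in size, and there the change against Maltodextrin was -0.41. The Control libraries of mPOA and Raphe had more Gad2 than those of any other treatment in the same region, with 563 ± 27.5 and 279 ± 19 CPM, and all drugs and Maltodextrin were called lower than Control in both regions.

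Bupropion had Gad2 called higher in 5 and lower in 3 of 10 regions (median log2 change 0.24, range -0.79 to 0.54). Other counts were 6 higher and 3 lower with library totals, 5 higher and 2 lower against Maltodextrin, and 2 higher and 1 lower over CGC, PLC and Raphe alone. Gad2 in CGC stood at 215, 235, 192, 240.1 and 276 normalised CPM in the Bupropion libraries, against 159, 157, 163, 155 and 164 in the Control libraries. Bupropion was the higher group, without overlap. The fitted log2 change was 0.54 ± 0.07 (SE; adjusted p = 5.07e-08), and against Maltodextrin it was 0.79 ± 0.07 (adjusted p = 2.5e-12). In Raphe, the Bupropion libraries had 179.6, 189.6, 178, 182 and 184 normalised CPM of Gad2, against 326, 314, 336, 319.6 and 283 in Control. All Bupropion values were below all Control values. On the log2 scale the change was -0.79 ± 0.06 (SE; adjusted p = 6.75e-13), and against Maltodextrin it was -0.35 ± 0.06 (adjusted p = 1.14e-05). In CGC the forms of the enzyme thus moved in opposite directions in the same 5 libraries, against both controls. The same held in PLC, where Gad2 changed by log2 0.38 ± 0.07 (0.29 against Maltodextrin) and Gad1 by log2 -0.54 ± 0.05 (-0.36 against Maltodextrin). In NACShell it held against Control and not against Maltodextrin: Gad2 changed by log2 0.34 ± 0.06 (-0.16 against Maltodextrin) and Gad1 by log2 -0.22 ± 0.05 (-0.33 against Maltodextrin). FT had Gad2 called higher in 2 and lower in 3 of 10 regions (median log2 change -0.09, range -1.3 to 0.46). This became 2 higher and 2 lower with library totals, 2 higher and 4 lower against Maltodextrin, and 0 higher and 1 lower over CGC, PLC and Raphe alone. Without the FT groups labelled ILC and LConly it was 2 higher and 2 lower of 8 regions, with log2 changes of -1.3 to 0.46. The FT libraries of mPOA held Gad2 at 253, 252, 243, 239 and 251 normalised CPM, and the Control libraries at 613, 650.4, 557, 639 and 583. Every FT library lay below every Control library. As a log2 change this came to -1.3 ± 0.06 (SE; adjusted p = 3.18e-19), and against Maltodextrin it was -0.91 ± 0.06 (adjusted p = 8.01e-15). Gad2 in NACShell stood at 682, 622, 595, 629 and 640.0 normalised CPM in the FT libraries, against 446, 449, 463, 473 and 469.9 in the Control libraries. FT was the higher group, without overlap. The log2 change was 0.46 ± 0.06 (SE; adjusted p = 7.14e-09), and against Maltodextrin it was -0.04 ± 0.06 (adjusted p = 0.537).

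Probiotics had Gad2 called higher in 3 and lower in 3 of 10 regions (median log2 change -0.01, range -0.27 to 0.80). The calls were 3 higher and 0 lower with library totals and 1 higher and 2 lower over CGC, PLC and Raphe alone. In venDG, the Probiotics libraries had 241, 270.2, 272, 273 and 238 normalised CPM of Gad2, against 144, 141, 167, 155 and 139 in Maltodextrin. All Probiotics values were above all Maltodextrin values. Fitted on the log2 scale, the change was 0.80 ± 0.06 (SE; adjusted p = 1.48e-13). Gad1 fell in venDG in the same libraries. The Probiotics libraries of BLA held Gad2 at 344, 363, 358, 372 and 363 normalised CPM, and the Maltodextrin libraries at 429, 401, 439.9, 483 and 417. Every Probiotics library lay below every Maltodextrin library. Probiotics over Maltodextrin gave a log2 change of -0.27 ± 0.10 (SE; adjusted p = 0.0439). The BLA call was lost with RLE size factors (adjusted p = 0.0518), without the filter on low counts (0.0638) and with library totals (0.179), and when any 1 of 9 of the 10 libraries was left out (adjusted p 0.0542 to 0.119). In dorDG, Probiotics libraries ranged widely in Gad2, at 359, 430.2, 259, 164 and 44.6 CPM, against 187, 195, 193, 181 and 196 in Maltodextrin, and Gad2 was not called there in any of the 5 comparisons, all of which share this spread. Maltodextrin had Gad2 called higher in 2 and lower in 4 of 10 regions (median log2 change -0.04, range -0.44 to 0.50). Calls came to 2 higher and 3 lower with library totals and 0 higher and 2 lower over CGC, PLC and Raphe alone. Gad2 in NACShell stood at 691, 610.0, 648, 676 and 638 normalised CPM in the Maltodextrin libraries, against 446, 449, 463, 473 and 469.9 in the Control libraries. Maltodextrin was the higher group, without overlap. Its log2 change was 0.50 ± 0.06 (SE; adjusted p = 1.28e-09). In Raphe, the Maltodextrin libraries had 222, 233, 219, 222 and 271 normalised CPM of Gad2, against 326, 314, 336, 319.6 and 283 in Control. All Maltodextrin values were below all Control values. This was a log2 change of -0.44 ± 0.06 (SE; adjusted p = 6.36e-07).

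Since Gad1 and Gad2 are counted in the same library, the log2 ratio of their counts is free of any library scaling. Its absolute value depends on transcript length and is read only between groups. The ratio was averaged over the 10 regions of each treatment replicate, a measure added after the levels were seen, and its values were 0.49, 0.36, 0.51, 0.37 and 0.25 for the 5 FT replicates, -0.25, -0.23, -0.23, -0.34 and -0.53 for Bupropion, 0.85, 0.82, 0.88, 0.75 and 0.79 for Desipramine, -0.07, -0.30, -0.16, -0.18 and -0.10 for Probiotics, 0.35, 0.35, 0.35, 0.26 and 0.25 for Maltodextrin and 0.18, 0.10, 0.02, 0.04 and 0.16 for Control. Every Desipramine value lay above, and every Bupropion and Probiotics value below, the values of the other groups; those of Bupropion and Probiotics overlapped. The mean was 0.82 ± 0.05 in Desipramine, 0.40 ± 0.10 in FT, -0.32 ± 0.13 in Bupropion, -0.16 ± 0.09 in Probiotics, 0.31 ± 0.05 in Maltodextrin and 0.10 ± 0.07 in Control (SD, n = 5).

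The difference from Control was 0.72 for Desipramine, 0.30 for FT, -0.41 for Bupropion and 0.21 for Maltodextrin, and Probiotics differed from Maltodextrin by -0.47. In each of these 5 comparisons the groups did not overlap. A two-sided exact permutation test of 5 against 5 then gives p = 0.00794, the smallest it can give, also after adjustment over the 5. Maltodextrin against Control, with no drug in either group, reached this p too. How often other pairs of genes split in this way was not tested. The ratio was chosen after Gad1 and Gad2 were seen to move apart in these libraries, so its p-values add no separate support. The mean ratio was higher in 10 of 10 regions for Desipramine and in 8 for FT, lower in 8 for Bupropion and in 8 for Probiotics, and higher in 6 and lower in 4 for Maltodextrin. The largest regional differences were those of Bupropion in CGC, with -1.05 against 0.40 in Control, Desipramine in Raphe, with 0.88 against -0.71, and Probiotics in dorDG, with -1.72 against -0.01 in Maltodextrin. Without ILC and LConly the difference was 0.17 for FT (exact permutation, adjusted p = 0.0198) and 0.08 for Maltodextrin (exact permutation, adjusted p = 0.0397). Over CGC, mPOA, NACShell, PLC and Raphe, the Probiotics difference was -0.17 (exact permutation p = 0.0159). Set against Maltodextrin in place of Control, the FT difference was 0.08 (exact permutation p = 0.0952). Over CGC, PLC and Raphe alone, the Probiotics difference was -0.14 (exact permutation p = 0.0556).

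**Figure D3:**
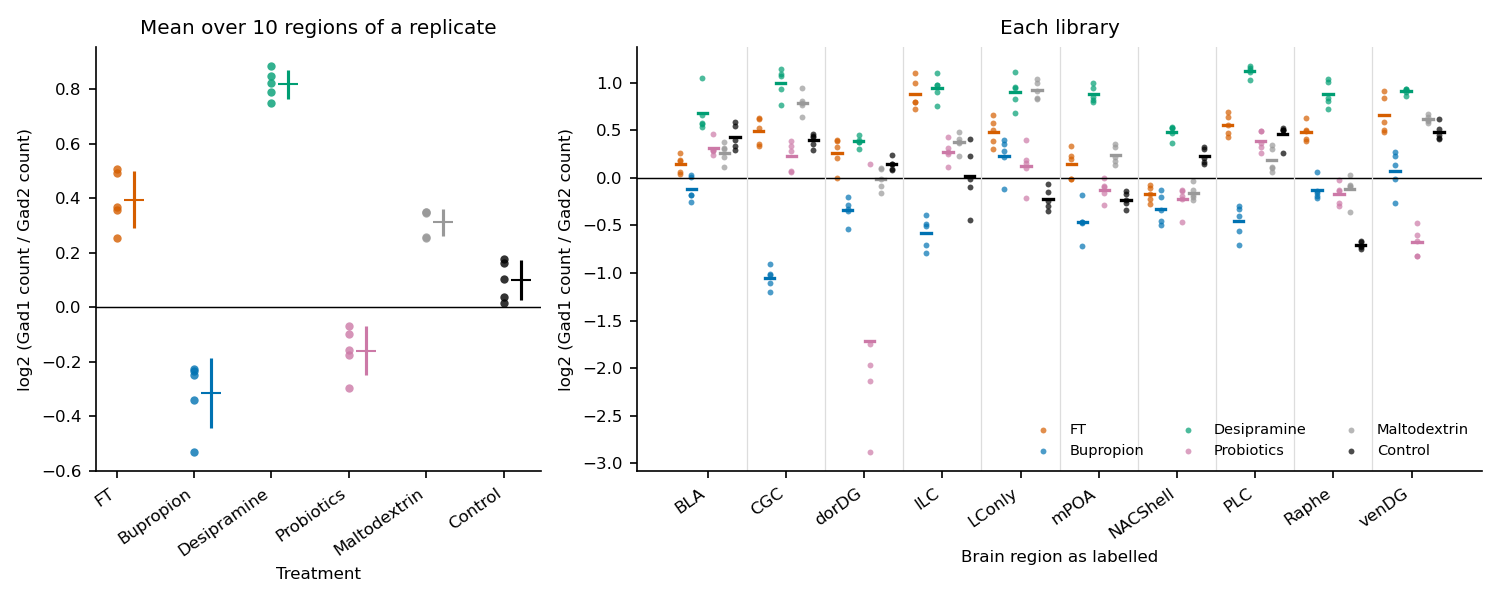
Log2 ratio of Gad1 to Gad2 counts. The left panel shows the mean over 10 regions for each treatment replicate (points), with the mean and SD of 5 beside them; the right panel shows each library by region, with bars for the means. Desipramine averaged 0.82 and Bupropion -0.32, against 0.10 in Control, and the 4 lowest libraries of the series are Probiotics libraries of dorDG (-2.88 to -1.75), whose replicate 5 stands at 0.14.

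Slc32a1, the vesicular transporter, was higher than in Control under all drugs in most of the regions where it was called, with levels of up to 129 CPM in Desipramine mPOA and down to 9.23 in Control ILC. FT had it called higher in 8 and lower in 1 of 10 regions (median log2 change 0.39, range -0.25 to 2.1). Other counts were 8 higher and 0 lower with library totals, 7 higher and 2 lower against Maltodextrin, and 3 higher and 0 lower over CGC, PLC and Raphe alone. Without the FT groups labelled ILC and LConly it was 7 higher and 1 lower of 8 regions, with log2 changes of -0.25 to 0.91. The FT libraries of Raphe held Slc32a1 at 74.5, 94.8, 86.5, 104 and 101 normalised CPM, and the Control libraries at 43.3, 49.8, 48.4, 49.5 and 55.6. Every FT library lay above every Control library. The fitted log2 change was 0.91 ± 0.08 (SE; adjusted p = 1.77e-12), and against Maltodextrin it was 0.30 ± 0.08 (adjusted p = 0.00165). Slc32a1 in mPOA stood at 66.7, 86.9, 79.97, 88.4 and 88.6 normalised CPM in the FT libraries, against 104, 96.8, 88, 99.2 and 103 in the Control libraries. Most FT values were lower, but the groups overlapped. On the log2 scale the change was -0.25 ± 0.08 (SE; adjusted p = 0.0106), and against Maltodextrin it was -0.24 ± 0.08 (adjusted p = 0.0149). The mPOA call was lost with library totals (log2 -0.11, adjusted p = 0.192). In NACShell (log2 0.69 ± 0.09, and 0.59 against Maltodextrin) and BLA (log2 0.58 ± 0.09, and 0.47 against Maltodextrin) Slc32a1 was also called higher. Desipramine had it called higher in 7 and lower in 0 of 10 regions (median log2 change 0.37, range 0.06 to 1.15). This became 9 higher and 0 lower with library totals, 7 higher and 1 lower against Maltodextrin, and 2 higher and 0 lower over CGC, PLC and Raphe alone. In ILC, the Desipramine libraries had 24.9, 20.7, 25.6, 25.2 and 30.1 normalised CPM of Slc32a1, against 10.03, 11.4, 12.5, 10.4 and 12.8 in Control. All Desipramine values were above all Control values. As a log2 change this came to 1.15 ± 0.09 (SE; adjusted p = 1.84e-15), and against Maltodextrin it was 0.52 ± 0.09 (adjusted p = 8.25e-06). In Raphe the change was log2 0.84 ± 0.08 (0.23 against Maltodextrin) and in PLC log2 0.40 ± 0.07 (0.64 against Maltodextrin).

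Bupropion had Slc32a1 called higher in 5 and lower in 1 of 10 regions (median log2 change 0.16, range -0.21 to 0.66). The calls were 4 higher and 1 lower with library totals, 1 higher and 1 lower against Maltodextrin, and 1 higher and 1 lower over CGC, PLC and Raphe alone. The Bupropion libraries of ILC held Slc32a1 at 17.1, 17.5, 20.7, 18.2 and 16.9 normalised CPM, and the Control libraries at 10.03, 11.4, 12.5, 10.4 and 12.8. Every Bupropion library lay above every Control library. The log2 change was 0.66 ± 0.09 (SE; adjusted p = 1.22e-08), and against Maltodextrin it was 0.03 ± 0.09 (adjusted p = 0.807). Slc32a1 in PLC stood at 22.4, 22.9, 20.4, 19.7 and 22.8 normalised CPM in the Bupropion libraries, against 27.1, 24.6, 23.8, 24.8 and 25.2 in the Control libraries. Bupropion was the lower group, without overlap. Fitted on the log2 scale, the change was -0.21 ± 0.07 (SE; adjusted p = 0.0146), and against Maltodextrin it was 0.03 ± 0.07 (adjusted p = 0.778). Neither change was called against Maltodextrin. Probiotics had the gene called higher in 2 and lower in 1 of 10 regions (median log2 change 0.15, range -0.40 to 0.37). Calls came to 6 higher and 3 lower with library totals and 1 higher and 0 lower over CGC, PLC and Raphe alone. In PLC, the Probiotics libraries had 27.5, 24.5, 29.98, 25.5 and 29.9 normalised CPM of Slc32a1, against 20.5, 20.4, 23, 18.7 and 23.3 in Maltodextrin. All Probiotics values were above all Maltodextrin values. Probiotics over Maltodextrin gave a log2 change of 0.37 ± 0.07 (SE; adjusted p = 7.85e-05). The Probiotics libraries of LConly held Slc32a1 at 43.3, 47.2, 48.2, 45.2 and 49.8 normalised CPM, and the Maltodextrin libraries at 59.2, 65.9, 62.6, 56.3 and 63.7. Every Probiotics library lay below every Maltodextrin library. Its log2 change was -0.40 ± 0.06 (SE; adjusted p = 2.72e-06).

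Maltodextrin had Slc32a1 called higher in 3 and lower in 1 of 10 regions (median log2 change 0.09, range -0.24 to 1.1). Other counts were 5 higher and 1 lower with library totals and 1 higher and 1 lower over CGC, PLC and Raphe alone. Slc32a1 in LConly stood at 59.2, 65.9, 62.6, 56.3 and 63.7 normalised CPM in the Maltodextrin libraries, against 28.9, 26.7, 28.5, 27 and 32.1 in the Control libraries. Maltodextrin was the higher group, without overlap. This was a log2 change of 1.1 ± 0.06 (SE; adjusted p = 1.23e-15). Slc6a5, the glycine transporter of glycinergic neurons, which also load their transmitter through the protein Slc32a1 encodes, averaged 226 ± 15.2 CPM in these Maltodextrin libraries and 79.2 ± 7.22 in Control. In PLC, the Maltodextrin libraries had 20.5, 20.4, 23, 18.7 and 23.3 normalised CPM of Slc32a1, against 27.1, 24.6, 23.8, 24.8 and 25.2 in Control. All Maltodextrin values were below all Control values. The fitted log2 change was -0.24 ± 0.07 (SE; adjusted p = 0.0068). The PLC call was lost without Maltodextrin replicate 2 (log2 -0.18, adjusted p = 0.0545) or replicate 4 (log2 -0.16, adjusted p = 0.0807). Raphe rose with Maltodextrin too (log2 0.61 ± 0.08, adjusted p = 1.93e-07), and there Slc6a5 averaged 229 ± 18.2 CPM, against 107 ± 9.21 in Control. The part of glycinergic neurons in these changes was not tested.

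Slc6a11, the astrocyte transporter, was higher under Probiotics than under Maltodextrin in most regions. It was called higher in 8 and lower in 1 of 10 regions (median log2 change 0.66, range -1.11 to 1.46), where 21.6% of all tests were called higher. This became 8 higher and 1 lower with library totals and 3 higher and 0 lower over CGC, PLC and Raphe alone. The Probiotics libraries of ILC held Slc6a11 at 16.1, 16.8, 15.4, 17.2 and 18.7 normalised CPM, and the Maltodextrin libraries at 6.96, 6.2, 5.61, 5.84 and 5.83. Every Probiotics library lay above every Maltodextrin library. On the log2 scale the change was 1.46 ± 0.12 (SE; adjusted p = 9.83e-14). Over CGC, PLC and Raphe, Slc6a11 changed by log2 0.72 ± 0.11 in PLC, log2 0.69 ± 0.12 in CGC and log2 0.64 ± 0.08 in Raphe, all called higher. The test of a difference between those 3 regions did not pass (adjusted p = 0.936). In PLC the levels were 13.7 ± 1.68 normalised CPM in Probiotics, 8.41 ± 1.4 in Maltodextrin and 14 ± 1.13 in Control (SD, n = 5), and in Raphe 76.8 ± 3.97, 49.5 ± 5.59 and 80.9 ± 4.08 in the same order. Maltodextrin itself was called lower than Control in both regions, while in CGC its change from Control was log2 -0.11 ± 0.12, adjusted p = 0.487. NACShell changed by log2 1.03 ± 0.10. Slc6a11 in dorDG stood at 6.44, 5.87, 1.73, 3.75 and 7.71 normalised CPM in the Probiotics libraries, against 12.2, 10.9, 12.6, 9.06 and 10.2 in the Maltodextrin libraries. Probiotics was the lower group, without overlap. As a log2 change this came to -1.11 ± 0.22 (SE; adjusted p = 3.32e-05). Summed astrocyte markers (18 of 18 in the table) did not show one direction: in ILC they were 11093 to 12928 CPM under Probiotics, against 9885 to 10119.7 under Maltodextrin, in PLC 10410.2 to 11565, against 11788 to 12908, and in CGC 12655 to 13067, against 12526 to 13895. In dorDG they were 9507 to 11711, against 16771 to 18601.

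Maltodextrin had Slc6a11 called higher in 3 and lower in 4 of 10 regions (median log2 change -0.19, range -0.74 to 0.93). The calls were 2 higher and 4 lower with library totals and 0 higher and 2 lower over CGC, PLC and Raphe alone. In PLC, the Maltodextrin libraries had 9.15, 8.56, 8.27, 9.92 and 6.18 normalised CPM of Slc6a11, against 13.8, 14.4, 12.4, 15.6 and 13.8 in Control. All Maltodextrin values were below all Control values. The log2 change was -0.74 ± 0.11 (SE; adjusted p = 7.57e-07). The Maltodextrin libraries of ILC held Slc6a11 at 6.96, 6.2, 5.61, 5.84 and 5.83 normalised CPM, and the Control libraries at 3.48, 2.75, 3.18, 2.21 and 4.25. Every Maltodextrin library lay above every Control library. Fitted on the log2 scale, the change was 0.93 ± 0.15 (SE; adjusted p = 3.3e-07). Bupropion had it called higher in 3 and lower in 2 of 10 regions (median log2 change -0.13, range -0.79 to 1.57). Calls came to 3 higher and 2 lower with library totals, 3 higher and 1 lower against Maltodextrin, and 0 higher and 2 lower over CGC, PLC and Raphe alone. Slc6a11 in ILC stood at 9.28, 9.33, 10.2, 9.47 and 9.4 normalised CPM in the Bupropion libraries, against 3.48, 2.75, 3.18, 2.21 and 4.25 in the Control libraries. Bupropion was the higher group, without overlap. Bupropion over Control gave a log2 change of 1.57 ± 0.13 (SE; adjusted p = 1.74e-14), and against Maltodextrin it was 0.64 ± 0.12 (adjusted p = 1.69e-05). In Raphe, the Bupropion libraries had 45.1, 43.2, 51.9, 45.4 and 48.8 normalised CPM of Slc6a11, against 76.7, 78.1, 87.3, 81.3 and 80.9 in Control. All Bupropion values were below all Control values. Its log2 change was -0.79 ± 0.07 (SE; adjusted p = 9.27e-11), and against Maltodextrin it was -0.08 ± 0.08 (adjusted p = 0.451). In ILC the Control libraries held 2.58 ± 0.707 CPM, the lowest mean of any group, and all drugs and Maltodextrin were called higher than Control there.

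Desipramine had Slc6a11 called higher in 3 and lower in 3 of 10 regions (median log2 change -0.21, range -1.07 to 1.54). Other counts were 4 higher and 3 lower with library totals, 2 higher and 3 lower against Maltodextrin, and 0 higher and 2 lower over CGC, PLC and Raphe alone. The Desipramine libraries of ILC held Slc6a11 at 9.32, 9.8, 7.51, 8.3 and 11.8 normalised CPM, and the Control libraries at 3.48, 2.75, 3.18, 2.21 and 4.25. Every Desipramine library lay above every Control library. This was a log2 change of 1.54 ± 0.14 (SE; adjusted p = 1.07e-13), and against Maltodextrin it was 0.61 ± 0.13 (adjusted p = 0.00019). Slc6a11 in Raphe stood at 38.8, 34, 34, 43.8 and 40.9 normalised CPM in the Desipramine libraries, against 76.7, 78.1, 87.3, 81.3 and 80.9 in the Control libraries. Desipramine was the lower group, without overlap. The fitted log2 change was -1.07 ± 0.08 (SE; adjusted p = 1.47e-14), and against Maltodextrin it was -0.36 ± 0.08 (adjusted p = 0.000287). FT had it called higher in 3 and lower in 5 of 10 regions (median log2 change -0.29, range -2.35 to 3.74). This became 3 higher and 5 lower with library totals, 3 higher and 3 lower against Maltodextrin, and 0 higher and 2 lower over CGC, PLC and Raphe alone. Without the FT groups labelled ILC and LConly it was 2 higher and 4 lower of 8 regions, with log2 changes of -1.24 to 0.82. In Raphe, the FT libraries had 30.8, 36.4, 37.7, 36.5 and 29.4 normalised CPM of Slc6a11, against 76.7, 78.1, 87.3, 81.3 and 80.9 in Control. All FT values were below all Control values. On the log2 scale the change was -1.24 ± 0.08 (SE; adjusted p = 3.2e-16), and against Maltodextrin it was -0.53 ± 0.08 (adjusted p = 8.71e-07). The FT libraries of BLA held Slc6a11 at 14, 25.9, 27, 31.4 and 21.9 normalised CPM, and the Control libraries at 13.6, 12.9, 13.5, 14.9 and 14.9. Most FT values were higher, but the groups overlapped. As a log2 change this came to 0.82 ± 0.12 (SE; adjusted p = 2.71e-07), and against Maltodextrin it was 0.46 ± 0.11 (adjusted p = 0.000723). FT BLA libraries also had more oligodendrocyte markers, with 78604 to 109689 CPM, against 20067 to 23825 in Control. Their astrocyte markers, at 13632 to 18584 CPM, overlapped those of Control, at 13216 to 14130.0. The part of these markers in the difference was not tested. All drugs and Maltodextrin were called lower than Control in Raphe, where the Control libraries held 71.6 ± 5.0 CPM. Astrocyte markers in Raphe summed to 15940.3 to 22310.3 CPM in FT, 23204 to 25396 in Bupropion, 20279 to 22715 in Desipramine, 20913 to 24479 in Maltodextrin and 25726 to 27951 in Control.

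The 2 FT groups with exchanged markers gave the widest changes of the 4 genes and are not read here as drug effects. In libraries labelled ILC, FT over Control was log2 3.74 ± 0.12, adjusted p = 6.32e-30 for Slc6a11 (± SE), with 45, 53.3, 39.5, 55.8 and 43.3 CPM in FT and 2.93, 2.11, 2.53, 1.76 and 3.57 in Control. Slc32a1 changed by log2 2.1 ± 0.09, Gad1 by log2 0.34 ± 0.06 and Gad2 by log2 -0.54 ± 0.10, all called. In libraries labelled LConly, Slc6a11 changed by log2 -2.35 ± 0.11, adjusted p = 1.61e-20, with 6.77, 12.8, 11.8, 11.2 and 11.4 CPM in FT and 41.3, 43.6, 46.1, 45.7 and 55.7 in Control. Gad1 was called higher there (log2 0.68 ± 0.07), and Gad2 (log2 -0.03 ± 0.06) and Slc32a1 (log2 -0.07 ± 0.07) were not called. Beside their labels, the FT libraries labelled ILC held Slc6a11 at 47.4 ± 6.88 CPM, and Control LConly held 46.5 ± 5.5; FT libraries labelled LConly held 10.8 ± 2.34, and Control PLC, a cortical region next to ILC, 13.6 ± 1.2.

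Whether a treatment's effect differed between regions was tested with the 9 treatment-by-region terms on 100 libraries, keeping the treatment replicate in the model. All 20 tests of the 4 genes passed, with adjusted p from 2.01e-66 for Slc6a11 under FT to 7.77e-05 for Gad2 under Probiotics. Passing was common: 92.4% of all genes did so for FT, 90.2% for Bupropion, 87.0% for Desipramine, 82.2% for Probiotics and 89.8% for Maltodextrin. The 4 genes were thus like most others in this respect. For Gad1 under Desipramine the effects differed in size (adjusted p = 1.31e-28) while the log2 change was above 0 in all 10 regions.

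The other genes of the pathway were counted over a list of 14: GABA transporters, enzymes that break GABA down, glutamine and glutamate metabolism, and vitamin B6 metabolism. Over all genes tested in the same regions, the shares called higher and lower were 26.9% and 26.2% for FT. The shares were 22.8% and 23.3% for Bupropion, 26.3% and 27.8% for Desipramine, 21.6% and 21.0% for Probiotics, and 18.3% and 19.3% for Maltodextrin. The 14 listed genes gave 131 tests per comparison, Slc6a12 being tested in 1 region. FT called 28 higher and 42 lower (45 and 27 with library totals), Bupropion 39 and 20 (44 and 29 with library totals), Desipramine 29 and 48 (41 and 25 with library totals), Probiotics 35 and 25 (41 and 25 with library totals), and Maltodextrin 18 and 32 (32 and 30 with library totals). Genes are named here for calls one way in at least 8 regions, and the share of all genes with such calls is not given. Abat, the transaminase that begins the breakdown of GABA, was called higher in 10 of 10 regions under Bupropion (median log2 change 0.50, range 0.28 to 0.77). It was also called higher in 10 of 10 under Probiotics (median log2 change 0.45, range 0.23 to 0.84). With library totals both gave 10 higher and 0 lower. Maltodextrin, the reference for Probiotics, itself had Abat called lower than Control in 5 regions and higher in 0 (median log2 change -0.24). Gad1 was mostly lower in these 2 treatments, and a link was not tested. Pdxk, the kinase that turns vitamin B6 into the cofactor of both Gad enzymes, was lower in 10 of 10 regions under Desipramine (median log2 change -1.06, range -1.55 to -0.59; 0 higher and 10 lower with library totals). Glul, the astrocyte glutamine synthetase, was lower in 8 regions under FT (median log2 change -0.51, range -1.23 to 0.67; 1 higher and 8 lower with library totals) and in 8 under Desipramine (median log2 change -0.39, range -1.01 to 0.71; 1 higher and 6 lower with library totals). Aldh5a1, which completes GABA breakdown, was higher in 9 under Desipramine (median log2 change 0.35, range 0.14 to 0.47; 9 higher and 0 lower with library totals). Slc38a2, a glutamine transporter, was higher in 8 under Desipramine (median log2 change 0.32, range -0.12 to 0.59, and 8 higher and 0 lower with library totals). Maltodextrin against Control, with no drug, moved the genes named for Desipramine the same way. Pdxk was called higher in 0 and lower in 5 regions (median log2 change -0.40), and Glul in 1 and 5 (-0.19). Aldh5a1 was called higher in 5 and lower in 0 (0.13), and Slc38a2 in 7 and 0 (0.19). The change of pathway genes from Maltodextrin to a drug was not tested.

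Slc1a1, a neuronal glutamate transporter, was higher in 8 regions under Bupropion (median log2 change 0.35, range 0.08 to 0.73; 9 higher and 0 lower with library totals). Under Probiotics, Slc38a1, a glutamine transporter of neurons, was higher in 8 and lower in 2 (median log2 change 0.44, range -2.75 to 0.73; 7 higher and 2 lower with library totals).

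**Figure D4:**
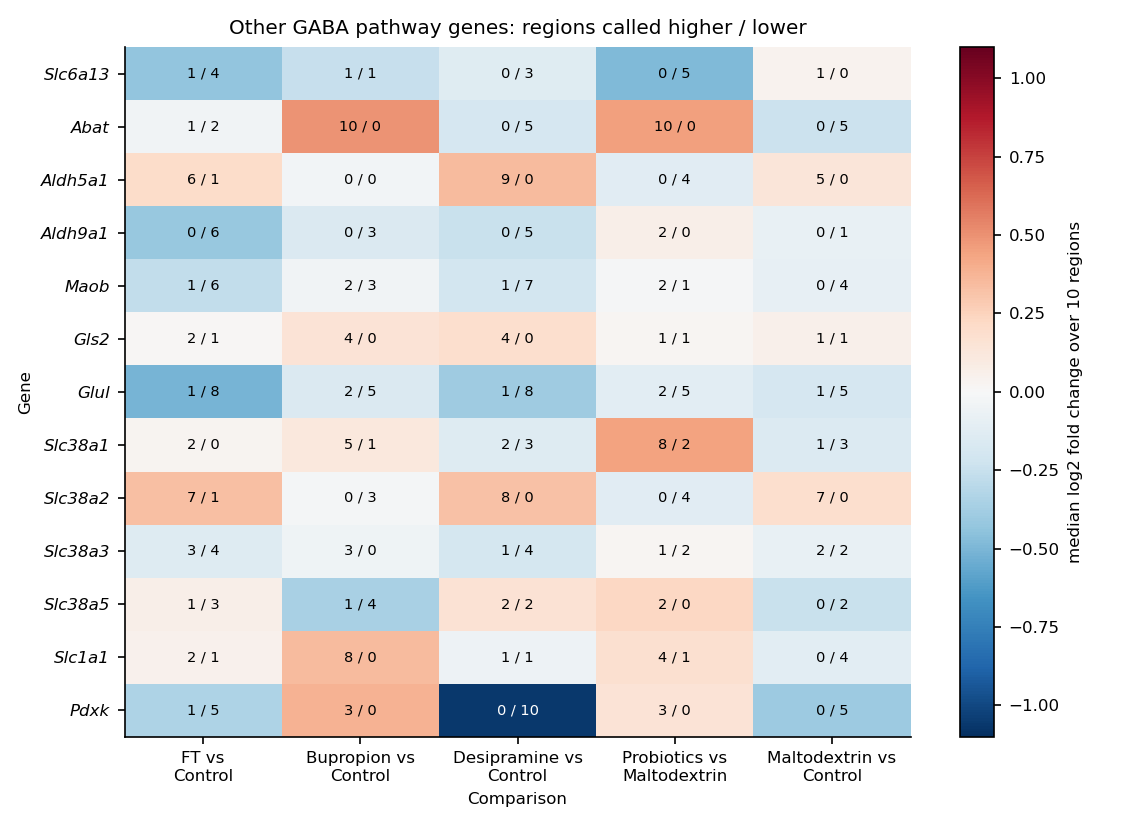
Other GABA pathway genes (rows) in the 5 comparisons (columns). Each cell gives the number of regions in which the gene was called higher / lower, and its colour the median log2 fold change over 10 regions. Pdxk under Desipramine (lower in 10 of 10) and Abat under Bupropion and Probiotics (higher in 10 of 10) were called one way in all 10 regions; Slc6a12, tested in 1 region, is not drawn.

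Likeness of pattern was described by Pearson's r over the 60 group means of log2(CPM + 0.5), among 11592 genes with a mean of at least 1 CPM; groups share regions and library scaling, so no p is given. The genes most like Gad1 were Abcg1 (0.846), Tmem263 (0.841), Myd88 (0.839) and Socs6 (0.839), those most like Gad2 Lhx8 (0.881), Six3 (0.852), Krt77 (0.851) and Gnal (0.845), those most like Slc32a1 Zfp503 (0.910), Gpr101 (0.891), Prima1 (0.888) and Nhs (0.887) and among those most like Slc6a11 were Relt (0.931), Clic4 (0.914) and Mid1ip1 (0.911). Lhx8 and Six3 are transcription factors of the ventral forebrain. Among the 4 genes, r was 0.772 for Gad1 with Gad2, 0.771 for Gad1 with Slc32a1, 0.694 for Gad2 with Slc32a1 and 0.713 for Slc32a1 with Slc6a11. Slc6a11 had 0.308 with Gad1 and 0.282 with Gad2. With the mean of each labelled region taken away, which leaves in the groups that stand apart, r fell to -0.097 for Gad1 with Gad2 and to -0.242 for Gad2 with Slc32a1, and stayed at 0.554 for Gad1 with Slc32a1 and 0.578 for Slc32a1 with Slc6a11. Over the 18 group means of CGC, PLC and Raphe, centred in the same way, r was -0.675 for Gad1 with Gad2, -0.707 for Gad2 with Slc32a1, 0.678 for Gad1 with Slc32a1 and -0.121 for Slc32a1 with Slc6a11. Over all 60 centred means the genes most like Gad1 were Khdrbs1 (0.919), Dhx9 (0.914), Bud13 (0.898) and Nptn (0.898), and those most like Gad2 Rnf167 (0.574), Cadm1 (0.567), Caln1 (0.558) and Ubox5 (0.549); those of Slc32a1 began with Cdkn1b (0.896) and those of Slc6a11 with Fgfr1 (0.885).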

How the data were processed

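The authors deposited 1 table of raw read counts per gene symbol for 300 libraries; every column was matched to a labelled sample (0 were not). Per the submitters' processing notes, STAR, HTSeq and FastQC were used with rn6; their versions and options are not stated there. Per the labels' protocols, libraries were made with a stranded total RNA kit. Whole numbers without normalization were checked, and all 600 pairs of libraries within groups differed beyond sampling noise (lowest chi-square per degree of freedom 1.36).

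Counts were fitted in edgeR 4.0.16 (R 4.3.3) with TMM, filterByExpr and the quasi-likelihood test: 30 libraries per region for treatments, 100 for the 9 treatment-by-region terms and 50 per control group for the order of regions. The scripts were tested on simulated data before use. Levels are CPM of the library total; normalised CPM divides by the total of the tested genes times its TMM factor. Precision rests on 5 libraries a group. The count test of DESeq2 1.42.0 was an alternative, as were other scalings, no filter, Maltodextrin in place of Control, fewer regions and leaving out each library.

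The 4 genes, the gene lists and the tests were chosen with earlier results of these data known. For each gene and comparison, the called regions with the highest positive and the lowest negative change are given by library, leaving out ILC and LConly for FT. Pathway genes are named when called one way in at least 8 of 10 regions, up to 4 a comparison. A Gad1 to Gad2 ratio, values over CGC, PLC and Raphe alone, a marker sum without Sst and Pvalb and likeness over those regions were added after seeing the data. Some genes of the pathway are not reported here. Genes of the marker lists given by level were chosen after their values were seen.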

Additional observations from a re-analysis of the deposited data

Results flagged for a closer look

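A library stood apart from the other 4 of its group, by the gap to its nearest neighbour over the range of the group, in 19 of 240 groups (4 genes in 60 groups), where chance alone marks about 1 group in 20. For Gad1, Desipramine BLA replicate 3 had 282 CPM, below 588 to 662 in the other 4, and FT BLA replicate 1 had 532 CPM, above 449 to 472 in the other 4. In the same gene, FT CGC replicate 1 had 243 CPM, above 217 to 225 in the other 4, and FT ILC replicate 5 had 176 CPM, below 198 to 204 in the other 4. Further, Probiotics LConly replicate 5 had 108 CPM, below 137 to 148 in the other 4, and Maltodextrin PLC replicate 5 had 145 CPM, below 159 to 162 in the other 4. Likewise, Bupropion Raphe replicate 3 had 191 CPM, above 157 to 163 in the other 4, and Control venDG replicate 2 had 227 CPM, above 215 to 218 in the other 4. For Gad2, Desipramine BLA replicate 3 had 136 CPM, below 406 to 429 in the other 4, and Probiotics BLA replicate 1 had 349 CPM, below 365 to 371 in the other 4. In the same gene, FT NACShell replicate 1 had 695 CPM, above 608 to 633 in the other 4, and Control dorDG replicate 3 had 177 CPM, below 189.9 to 192 in the other 4. For Slc32a1, Control BLA replicate 2 had 62.1 CPM, below 68.2 to 69.9 in the other 4, and Control LConly replicate 5 had 32.6 CPM, above 23.5 to 26 in the other 4. In the same gene, Desipramine LConly replicate 3 had 41.1 CPM, below 45.4 to 46.9 in the other 4, and FT NACShell replicate 1 had 87.2 CPM, below 122 to 128 in the other 4. Further, Desipramine Raphe replicate 2 had 119 CPM, above 87.3 to 89.9 in the other 4. For Slc6a11, FT LConly replicate 1 had 6.77 CPM, below 11.2 to 12.8 in the other 4, and Maltodextrin Raphe replicate 5 had 33.3 CPM, below 47.9 to 49.7 in the other 4. Desipramine BLA replicate 3 is the library with the fewest counts of the series, and it is the low library for both Gad1 and Gad2.

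The effect of a treatment differed between regions, by the test of the treatment-by-region terms in edgeR with adjustment over all genes, for all 4 genes in all 5 comparisons. The adjusted p-values were these: FT against Control (1.98e-45 for Gad1, 3.72e-38 for Gad2, 1.25e-40 for Slc32a1 and 2.01e-66 for Slc6a11), Bupropion against Control (1.06e-30 for Gad1, 2.91e-28 for Gad2, 5.7e-18 for Slc32a1 and 2.61e-34 for Slc6a11), Desipramine against Control (1.31e-28 for Gad1, 1.5e-20 for Gad2, 2.39e-11 for Slc32a1 and 2.6e-33 for Slc6a11), Probiotics against Maltodextrin (5.95e-32 for Gad1, 7.77e-05 for Gad2, 2.61e-11 for Slc32a1 and 1.3e-18 for Slc6a11) and Maltodextrin against Control (2.55e-32 for Gad1, 6.39e-20 for Gad2, 6.02e-29 for Slc32a1 and 7.43e-26 for Slc6a11). As 82.2 to 92.4% of all genes passed the same test, these differences are no mark of the 4 genes.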

How the results depend on the processing

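Of 618 values of the 36 results given by library under the alternatives, 598 kept direction and call, 18 lost the call and 2 changed sign. Most came from leaving out a library, where 349 kept direction and call and 11 lost the call. With Maltodextrin in place of Control, 17 of the drug results kept direction and call, 2 lost the call and 2 changed sign. The results that changed sign are Gad2 under FT in NACShell, at -0.0431, and Slc32a1 under Bupropion in PLC, at 0.0286. Of the tests of the 4 genes, Bupropion called 50% lower over CGC, mPOA, NACShell, PLC and Raphe and 58.3% over CGC, PLC and Raphe alone. Among all genes it called 18.4 to 27.0% lower in each of these regions. Desipramine called 35% and 41.7% lower, beside 21.2 to 32.4% of all genes. Maltodextrin called 45% and 50% lower, beside 17.8 to 26.2% of all genes. Maltodextrin called 18.8% higher without ILC and LConly and 16.7% over CGC, PLC and Raphe. Among all genes its shares in single regions were 0.713 to 23.4% without ILC and LConly and 15.2 to 23.4% in CGC, PLC and Raphe. Over these 3 regions the difference between regions of Slc6a11 under Probiotics gave an adjusted p of 0.936. With library totals, 4 steps in the order of regions passed for Gad1 and 4 for Slc32a1 in Control, and 3 for Slc6a11 in Maltodextrin; leaving out a replicate left Gad1 with 3 to 5 in Maltodextrin. The Gad1 to Gad2 ratio differed by 0.084 between FT and Maltodextrin and by -0.138 between Probiotics and Maltodextrin over CGC, PLC and Raphe. The cause was not tested, beyond the fewer regions and the other control or scaling that the settings themselves bring.

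Replicate numbers were not taken to pair the libraries of compared groups, as the labels tie no number to a rat or batch. The median correlation of such same-numbered libraries was 0.04 to 0.07, and every pair passed 0.1 in at most 1 of 10 regions. Of 50 libraries, 17 to 27 correlated best with their own number among 5, where chance gives 1 in 5, a hint from the data and not from the design. Across the regions of a treatment, the number was the unit in the test of a difference between regions and in the Gad1 to Gad2 ratio. There the median correlation of same-numbered libraries was 0.36 in FT and 0.03 to 0.09 in the other treatments. Without the replicate in the model, all 20 tests of a difference between regions still passed. With the replicate number as a block, the share of tests called higher and lower was 42.5% and 25% for FT, 32.5% and 35% for Bupropion, 50% and 22.5% for Desipramine, 35% and 32.5% for Probiotics and 32.5% and 25% for Maltodextrin. Depth limits Slc6a11 most, with 5 counts in its poorest library.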

Other observations

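Calls of the cell type marker lists in the same comparisons, each drug and Maltodextrin against Control and Probiotics against Maltodextrin, describe the tissue around the 4 genes. Over all genes tested in the same regions, the shares called higher and lower were 26.9% and 26.2% for FT. They were 22.8% and 23.3% for Bupropion, 26.3% and 27.8% for Desipramine, 21.6% and 21.0% for Probiotics, and 18.3% and 19.3% for Maltodextrin. A count near these shares is no mark of its list. The 18 GABAergic neuron markers in the table, which include Sst, Pvalb and Vip, gave 140 tests per comparison over 10 regions, called 46 higher and 46 lower for FT, 51 higher and 25 lower for Bupropion, 48 higher and 43 lower for Desipramine, 25 higher and 26 lower for Probiotics and 18 higher and 35 lower for Maltodextrin. Striatal projection neuron markers, the receptors Drd1 and Drd2 among them, had 125 tests, with 34 higher and 39 lower for FT, 53 higher and 20 lower for Bupropion, 49 higher and 24 lower for Desipramine, 26 higher and 35 lower for Probiotics and 41 higher and 13 lower for Maltodextrin. For glycinergic neurons, marked by Slc6a5, 39 tests gave 16 higher and 5 lower for FT, 10 higher and 2 lower for Bupropion, 13 higher and 7 lower for Desipramine, 11 higher and 1 lower for Probiotics and 9 higher and 2 lower for Maltodextrin. Excitatory neuron markers such as Slc17a7 had 118 tests, giving 45 higher and 38 lower for FT, 44 higher and 24 lower for Bupropion, 46 higher and 21 lower for Desipramine, 53 higher and 13 lower for Probiotics and 24 higher and 23 lower for Maltodextrin. Astrocyte markers, with Gfap and Aqp4, had 180 tests and calls of 59 higher and 63 lower for FT, 42 higher and 59 lower for Bupropion, 55 higher and 75 lower for Desipramine, 58 higher and 58 lower for Probiotics and 46 higher and 62 lower for Maltodextrin. Oligodendrocyte markers such as Mbp had 100 tests, with 33 higher and 50 lower for FT, 26 higher and 35 lower for Bupropion, 34 higher and 45 lower for Desipramine, 29 higher and 33 lower for Probiotics and 19 higher and 35 lower for Maltodextrin. Choroid plexus markers, led by Ttr, had 51 tests, with 22 higher and 18 lower for FT, 15 higher and 5 lower for Bupropion, 11 higher and 12 lower for Desipramine, 20 higher and 9 lower for Probiotics and 20 higher and 5 lower for Maltodextrin. Markers of microglia and antigen presentation had 80 tests, and calls were 3 higher and 55 lower for FT, 16 higher and 36 lower for Bupropion, 9 higher and 52 lower for Desipramine, 18 higher and 15 lower for Probiotics and 6 higher and 43 lower for Maltodextrin. Markers of single regions had 91 tests, with 32 higher and 23 lower for FT, 35 higher and 16 lower for Bupropion, 27 higher and 17 lower for Desipramine, 41 higher and 11 lower for Probiotics and 16 higher and 27 lower for Maltodextrin.

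Levels of single markers are given in CPM (mean ± SD, n = 5). Sst, the peptide of one class of cortical interneuron, stood in CGC at 315 ± 43.8 in FT, 411 ± 18.8 in Bupropion, 216 ± 23.9 in Desipramine, 238 ± 17.5 in Probiotics, 220.2 ± 37 in Maltodextrin and 316 ± 18 in Control. Pvalb, the calcium-binding protein of another class, stood there at 333 ± 27 in FT, 458 ± 17.3 in Bupropion, 363 ± 18.6 in Desipramine, 351 ± 19.98 in Probiotics, 311 ± 20.7 in Maltodextrin and 360.5 ± 9.66 in Control. In PLC, Sst stood at 302 ± 46.2 in FT, 305 ± 21 in Bupropion, 198 ± 33.4 in Desipramine, 257 ± 24.9 in Probiotics, 212 ± 23.2 in Maltodextrin and 334 ± 82.1 in Control. Aqp4, the astrocyte water channel, stood in PLC at 468 ± 55.2 in FT, 360.5 ± 23.1 in Bupropion, 586 ± 15.9 in Desipramine, 437 ± 23.1 in Probiotics, 394 ± 28.6 in Maltodextrin and 373 ± 19.2 in Control. Gja1, the astrocyte gap junction protein, stood there at 284 ± 41.9 in FT, 188 ± 18 in Bupropion, 396 ± 36.9 in Desipramine, 326 ± 17 in Probiotics, 252 ± 19 in Maltodextrin and 273 ± 26.8 in Control.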
